A study of Homo sapiens with 30 samples.

Results

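TCERG1L, SNAI2, LHX5 and FBXW7 are 4 genes of 17283 named on an Illumina bead array, chosen by their measured levels: from untreated cells to 100 nM actinomycin D they rose more in wild-type than in p53-deficient HCT116 cells. All probes annotated to them were taken, 7 of 22177. TCERG1L, SNAI2 and LHX5 have 1 probe each and FBXW7 has 4, called here by their row in the deposited table. HCT116 is an established line from a colon adenocarcinoma, used in an isogenic pair, without p53 (p53KO) and wild type (WT). Each genotype had an untreated group and groups exposed to actinomycin D at 1, 10 or 100 nM, or to nutlin-3 at 4 µM, over 16 hours. That gives 10 groups of 3 arrays, 30 in all. The labels do not say whether the 3 arrays came from separate cultures, so a p-value covers the scatter of arrays that could be technical copies, nor whether the p53KO line is 1 clone.

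Actinomycin D binds DNA and stops transcription, that of ribosomal RNA at the lowest doses. Nutlin-3 frees p53, a transcription factor, from its inhibitor MDM2, so genes that p53 activates are known to rise under both drugs where p53 is present. FBXW7 is the substrate-binding subunit of an SCF ubiquitin ligase that marks cyclin E, MYC and other growth-promoting proteins for destruction, and it is a tumour suppressor of the colon. SNAI2, also called Slug, is a zinc-finger transcriptional repressor that promotes the epithelial-to-mesenchymal transition. LHX5 is a LIM homeobox transcription factor known from forebrain development in the mouse. The role of TCERG1L is little known.

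The 250 bases before the start of TCERG1L and before the outermost start of FBXW7, from RefSeq (GRCh38.p14, minus strand), are shown because the comparison is one between cells with and without a transcription factor. CpG sites are in capitals.
TCERG1L, chr10:131311722-131311971: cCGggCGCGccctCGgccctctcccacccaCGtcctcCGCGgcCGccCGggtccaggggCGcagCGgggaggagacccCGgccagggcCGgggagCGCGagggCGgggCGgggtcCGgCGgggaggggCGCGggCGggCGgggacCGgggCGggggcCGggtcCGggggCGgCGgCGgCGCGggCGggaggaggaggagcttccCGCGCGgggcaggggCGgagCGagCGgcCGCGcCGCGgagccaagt
FBXW7, chr4:152536093-152536342: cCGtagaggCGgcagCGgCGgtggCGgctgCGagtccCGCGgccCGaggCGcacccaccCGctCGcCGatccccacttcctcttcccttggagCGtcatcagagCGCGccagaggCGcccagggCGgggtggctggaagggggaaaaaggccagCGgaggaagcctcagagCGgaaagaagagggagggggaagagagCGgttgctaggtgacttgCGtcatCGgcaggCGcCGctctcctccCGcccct
The TCERG1L stretch holds 43 CpG sites at 86.8% G and C, and only 1.02% of 35116 RefSeq promoter windows hold as many. The FBXW7 stretch holds 26 at 70.4% G and C, against a median of 11 over all windows. FBXW7 has 3 further annotated starts, with 23, 5 and 0 CpG sites. The p53 half-site, a motif of 10 bases that is its own reverse complement, was not found in any of the 5 windows of 300 bases of TCERG1L and FBXW7, and 6.63% of all windows hold it. No match says only that these letters are absent from these windows, and no window of SNAI2 or LHX5 is among them.

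Levels below are log2 intensities after background correction and quantile normalisation, and a probe counts as detected on an array where its deposited detection p is under 0.01. TCERG1L was detected on 3 of the 30 arrays, SNAI2 on 10, LHX5 on 12, FBXW7 probe 19934 on all 30, probe 19935 on 24, probe 7182 on 21 and probe 14424 on 0. The 6 probes other than 14424 were detected on all 3 arrays of at least 1 group and were fitted among 12896 such probes. TCERG1L entered only through the WT arrays at 100 nM that chose it, so no test of it is read. SNAI2 entered only through the WT groups at 10 and 100 nM, and LHX5 only through the WT groups at the 3 doses. Tests that use these groups, those of LHX5 at 1 and 10 nM among them, are not independent of the filter. Each array value averaged 25 to 59 beads, and the number of arrays limits the precision. Differences are p53KO minus WT, with the standard error (SE) of limma's linear model over all 30 arrays.

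In GRCh38.p14, TCERG1L lies on chromosome 10 at 131092391 to 131311721, SNAI2 on chromosome 8 at 48917598 to 48921429, LHX5 on chromosome 12 at 113462033 to 113471871, and FBXW7 on chromosome 4 at 152320544 to 152536092. The files used here do not place the probes within these genes or assign them to transcripts.

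Some arrays stood apart. Signal across the whole array was lower at 100 nM: the 75th percentile of raw intensity was 108 and 121 in p53KO and WT cells at 100 nM, against 207 to 286 in the other 8 groups, and 10238 and 10558 probes were detected there, against 11910 to 12502. PROM1, a surface protein gene, was at 4.19 to 4.97 on p53KO arrays and at 8.13 or above on WT arrays, except on the third nutlin arrays, where the array labelled p53KO was at 9.07 and the array labelled WT at 4.36. CDKN1A, a cell-cycle inhibitor that p53 activates, was likewise at 13.9 on the third nutlin array labelled p53KO and 10.6 on that labelled WT, against 10.4 on the other 2 p53KO nutlin arrays and 13.8 on the other 2 WT ones. Results under nutlin are therefore given with and without these arrays. The first untreated arrays lay on the slide of the first 2 nutlin arrays of each genotype, and CDKN1A there was at 11.7 in p53KO cells, against 10.4 and 10.5 on the other 2, and at 13.9 in WT cells, against 12.3 and 12.2. Of 10 colon epithelial markers on the array, 5 were detected on all 30 arrays and VIL1 and CDX1 on 0. Of 11 markers of other cell types, 5 were detected on 0 arrays and CD68 and ACTA2 on all 30. ACTA2, a smooth-muscle actin, was lower in p53KO cells, by -3.67 at 1 nM and -3.49 at 10 nM (limma, adjusted p 0.00237 and 0.0018). Of the other tested markers, KRT19 was lower in p53KO cells at 1 nM (-0.62 ± 0.19) and COL1A1 higher at 10 nM (0.52 ± 0.17), with limma adjusted p of 0.039 and 0.0389. The part of these markers in the results was not tested.

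TCERG1L was detected at 100 nM in WT cells and stayed under the detection threshold everywhere else. In p53KO cells at 100 nM it was at 4.11, 4.17 and 4.16, against 8.67, 8.65 and 8.51 in WT cells. RNA came from whole cultures, so fewer cells with a transcript and less of it per cell cannot be told apart. No p53KO array detected it at any dose, and the 3 WT arrays at 100 nM were the only ones of 30 that did. At 100 nM it was at least 9.64-fold lower in p53KO than in WT cells, and in WT cells at least 14.5-fold higher than untreated (14.7-fold without the first untreated array). Here and below, such a bound sets the mean of the detected group against the lowest detected signal on each array of the other group. These are the values by which the gene was chosen, so no test is given. The raw intensities at 100 nM were 32.0, 36.2 and 34.1 in p53KO cells and 274, 235 and 187 in WT cells.

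At the lower doses TCERG1L stayed under the detection threshold. At 1 nM it averaged 4.22 ± 0.05 in p53KO cells and 4.27 ± 0.04 in WT cells, and at 10 nM 4.21 ± 0.03 and 4.66 ± 0.07 (SD, n = 3 each). The 10 nM groups did not overlap. Neither did the untreated groups, at 4.13 to 4.16 in p53KO cells and 4.27 to 4.65 in WT cells. None of the 12 arrays at 1 and 10 nM and no untreated array detected it, so neither a fold nor a call is given. The WT arrays at 10 nM came near the threshold of 0.01, with a deposited detection p of 0.01004, 0.01299 and 0.0609.

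SNAI2 rose at 100 nM in WT cells and stayed near background in p53KO cells. It was at 4.54, 4.91 and 4.73 in p53KO cells, against 7.29, 7.47 and 7.54 in WT cells at 100 nM. None of the 3 p53KO arrays and all 3 WT arrays detected it, and it was at least 4.26-fold lower in p53KO cells. WT cells at 100 nM were at least 6.42-fold above untreated WT cells (6.49-fold without the first untreated array) and 4.94-fold above WT cells at 10 nM. The size of these folds depended on the processing. Raw SNAI2 intensity in WT cells was 45.5 ± 6.1 untreated, 74.0 ± 8.2 at 10 nM and 111 ± 4.9 at 100 nM (SD, n = 3 each). As the contrasts at 100 nM chose the gene, these values are a description.

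At 10 nM the SNAI2 groups overlapped. The levels were 4.93, 4.85 and 4.43 in p53KO cells and 5.44, 5.15 and 4.80 in WT cells, detected on 2 and 3 arrays. The difference of -0.39 ± 0.20 (SE) was not called (limma, adjusted p 0.218), with a 95% interval of -0.81 to 0.02. With each pair of same-numbered p53KO and WT arrays of a treatment as a block, it was called (adjusted p 0.0483). At 1 nM the difference was 0.10 ± 0.20 (adjusted p 0.83). The first untreated p53KO array stood above the other 2 at 5.12, against 4.32 and 4.25, and was the only untreated array that detected the gene.

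LHX5 was the gene of the 3 with a single probe that separated the genotypes at every dose of actinomycin D. At 1 nM it was at 4.36, 4.30 and 4.41 in p53KO cells, against 5.41, 6.03 and 5.31 in WT cells. At 10 nM it was at 4.62, 4.39 and 4.25 in p53KO cells, against 5.91, 6.30 and 5.78 in WT cells. Detection followed genotype, with 0 of 6 p53KO arrays and 6 of 6 WT arrays, and the groups did not overlap at either dose. The untreated groups, with LHX5 undetected on every array, did not overlap either. They were at 4.23 to 4.30 in p53KO cells and 4.47 to 4.69 in WT cells.

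The LHX5 difference was -1.23 ± 0.22 at 1 nM (limma, adjusted p 0.00164) and -1.57 ± 0.22 at 10 nM (adjusted p 7.5e-05). LHX5 passed the filter only through WT groups, those at 1 and 10 nM included, so these p-values are not independent of the filter. As bounds, p53KO cells were at least 1.67-fold and 2.36-fold lower. In WT cells the level was 4.60 ± 0.12 untreated, 5.58 ± 0.39 at 1 nM, 5.99 ± 0.27 at 10 nM and 6.72 ± 0.14 at 100 nM (SD, n = 3 each). The 1 and 10 nM ranges overlapped, and 10 minus 1 nM in WT cells was 0.41 ± 0.22 (adjusted p 0.32). At 100 nM LHX5 was at 4.69, 5.24 and 4.34 in p53KO cells, against 6.57, 6.72 and 6.86 in WT cells. That is at least 2.59-fold lower, a value the choice of the gene used.

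**Figure D1:**
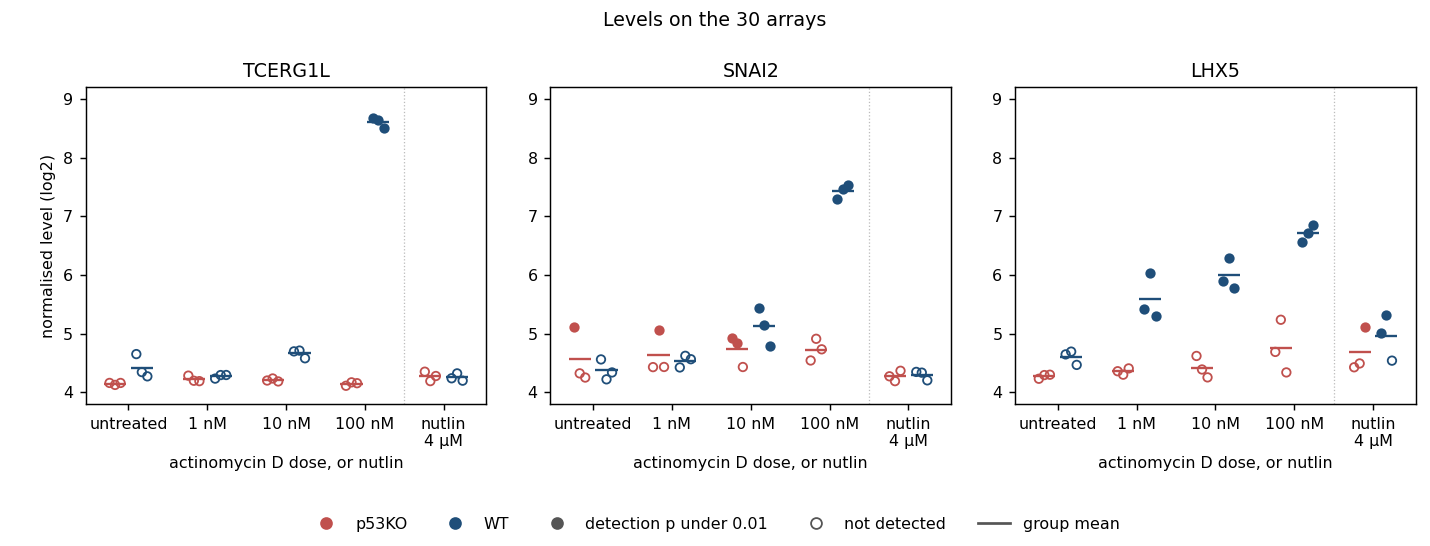
Normalised level (log2) of TCERG1L, SNAI2 and LHX5 on each of the 30 arrays, by dose and with nutlin at the right, p53KO (red) left of WT (blue). Filled points had a detection p under 0.01, open points did not, and bars are group means (n = 3). The 3 WT arrays at 100 nM stand above all others in each panel, at 8.51 to 8.67 for TCERG1L. LHX5 separates the genotypes at each dose, where only WT arrays detected it, and also, undetected, in untreated cells.

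How LHX5 and FBXW7 at 100 nM compared with other doses and with untreated cells depended on normalisation, and the 100 nM arrays were those of low signal. Raw LHX5 intensity in WT cells was 79.6 ± 9.3 at 1 nM, 113 ± 20 at 10 nM and 80.0 ± 1.9 at 100 nM (SD, n = 3 each), while the normalised level was highest at 100 nM. FBXW7 probe 19934 likewise had raw intensities of 257 ± 29 untreated, 400 ± 53 at 1 nM, 600 ± 51 at 10 nM and 270 ± 45 at 100 nM in WT cells. In p53KO cells they were 189 ± 27 untreated, 160 ± 55 at 1 nM, 160 ± 12 at 10 nM and 64.2 ± 4.5 at 100 nM. The genotype difference within 100 nM sets arrays of similar signal against each other: raw LHX5 intensity there was 47.1 ± 4.8 in p53KO cells and 80.0 ± 1.9 in WT cells.

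**Figure D2:**
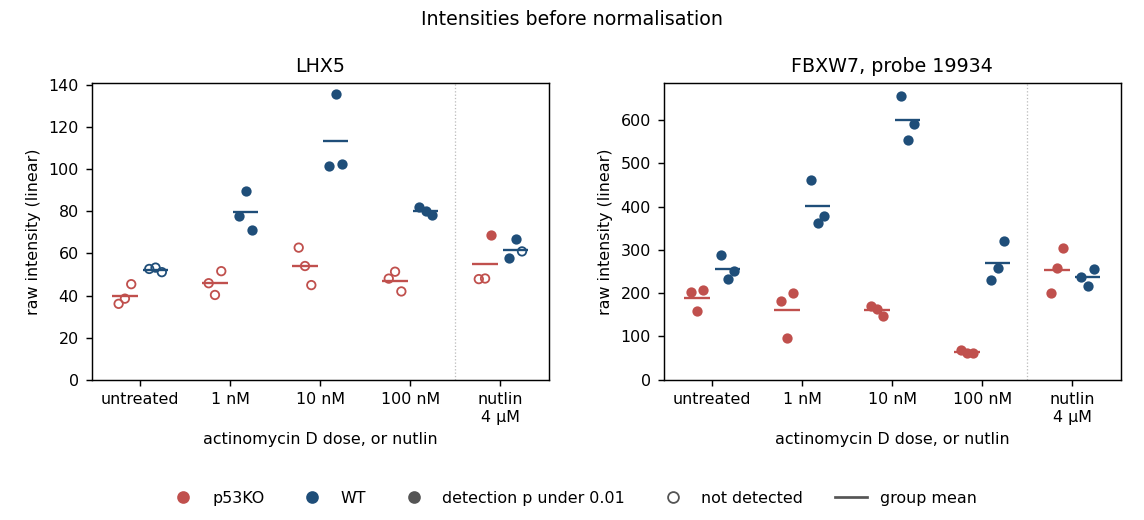
Raw intensity (linear scale from 0) of LHX5 and FBXW7 probe 19934 on each array, p53KO (red) left of WT (blue), with group means as bars (n = 3). Filled points were detected. Raw WT values peak at 10 nM, at 113 for LHX5 and 600 for FBXW7, and are lower at 100 nM.

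The 4 FBXW7 probes gave 3 different patterns. Probe 19934, the brightest, had normalised group means that were lower at each higher dose in p53KO cells, while in WT cells those at all doses were above the untreated one. In p53KO cells its level was 7.31 ± 0.18 untreated, 7.11 ± 0.12 at 1 nM, 6.63 ± 0.04 at 10 nM and 6.31 ± 0.09 at 100 nM (SD, n = 3 each). In WT cells it was 7.56 ± 0.28 untreated, 8.45 ± 0.02 at 1 nM, 8.84 ± 0.18 at 10 nM and 8.82 ± 0.42 at 100 nM. The untreated ranges overlapped between genotypes and those at each dose did not.

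At 1 nM probe 19934 was at 7.16, 6.97 and 7.20 in p53KO cells and 8.47, 8.44 and 8.45 in WT cells, a difference of -1.34 ± 0.17 (limma, adjusted p 0.000209). That is 2.53-fold lower in p53KO cells. At 10 nM it was at 6.65, 6.58 and 6.66 in p53KO cells and 9.02, 8.67 and 8.84 in WT cells, a difference of -2.21 ± 0.17 (adjusted p 1.63e-08), or 4.63-fold lower. All 6 p53KO arrays lay below all 6 WT arrays. At 100 nM, as a description, it was at 6.40, 6.23 and 6.30 in p53KO cells and 8.43, 8.77 and 9.25 in WT cells, or 5.68-fold lower.

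Against the untreated cells of the same genotype, normalised probe 19934 at 100 nM was 2.00-fold lower in p53KO cells and 2.39-fold higher in WT cells (1.87-fold and 2.67-fold without the first untreated arrays). The raw WT intensities, 270 at 100 nM and 257 untreated, differed by less than their SD. From 1 to 10 nM the change of probe 19934 was -0.48 ± 0.17 in p53KO cells (limma, adjusted p 0.113) and 0.39 ± 0.17 in WT cells (adjusted p 0.191). The normalised 10 nM arrays lay below the 1 nM arrays in p53KO cells and above them in WT cells, with no overlap, while the raw p53KO means were both 160. The difference of these changes was -0.87 ± 0.24, with an unadjusted p of 0.00137, and it was not called over all probes (adjusted p 1). Between these doses no probe of SNAI2, LHX5 or FBXW7 was called in p53KO or WT cells, where 4.56% and 5.72% of all probes were called. All arrays of the 2 doses lay on different slides, so slide and dose cannot be told apart in this comparison.

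Probe 7182, with another array identifier, was dimmer and was also lower in p53KO than in WT cells. At 1 nM it was at 4.52, 4.45 and 4.96 in p53KO cells and 5.81, 5.95 and 6.18 in WT cells, a difference of -1.34 ± 0.27 (limma, adjusted p 0.00343). At 10 nM it was at 4.57, 4.69 and 4.84 in p53KO cells and 6.30, 6.21 and 6.39 in WT cells, a difference of -1.60 ± 0.27 (adjusted p 0.000459). Only 1 of 3 p53KO arrays detected it at each of these doses, against 3 of 3 WT arrays, so no fold is given. At 100 nM it was at 4.88, 4.99 and 5.50 in p53KO cells and 5.72, 6.62 and 7.14 in WT cells. In p53KO cells it lay near background throughout, at 4.88 ± 0.11 untreated and 5.12 ± 0.33 at 100 nM.

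Probe 19935 shares its array identifier with probe 19934 but did not share its pattern. At 1 nM it was at 6.24, 6.05 and 6.38 in p53KO cells and 5.89, 5.64 and 5.93 in WT cells, slightly higher without p53, with a difference of 0.40 ± 0.21 that was not called (limma, adjusted p 0.255, 95% interval -0.03 to 0.84). At 10 nM the difference was 0.29 ± 0.21 (adjusted p 0.442). At 100 nM it was detected on 0 of 3 arrays in each genotype, at 4.67 ± 0.07 in p53KO cells and 4.81 ± 0.44 in WT cells. Against untreated cells that is at least 2.00-fold lower in p53KO cells and at least 1.54-fold lower in WT cells (1.70-fold and 1.41-fold without the first untreated arrays). Over the 10 group means the Pearson r of probes 19934 and 19935 was -0.09, while that of probes 19934 and 7182 was 0.86. Probe 14424 was detected on no array and lay between 4.24 and 5.07. Its highest group means were those at 100 nM, 4.71 ± 0.26 in p53KO cells and 4.80 ± 0.23 in WT cells. The FBXW7 result therefore rests on probes 19934 and 7182, and the higher FBXW7 level in WT cells was not seen with the other 2.

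**Figure D3:**
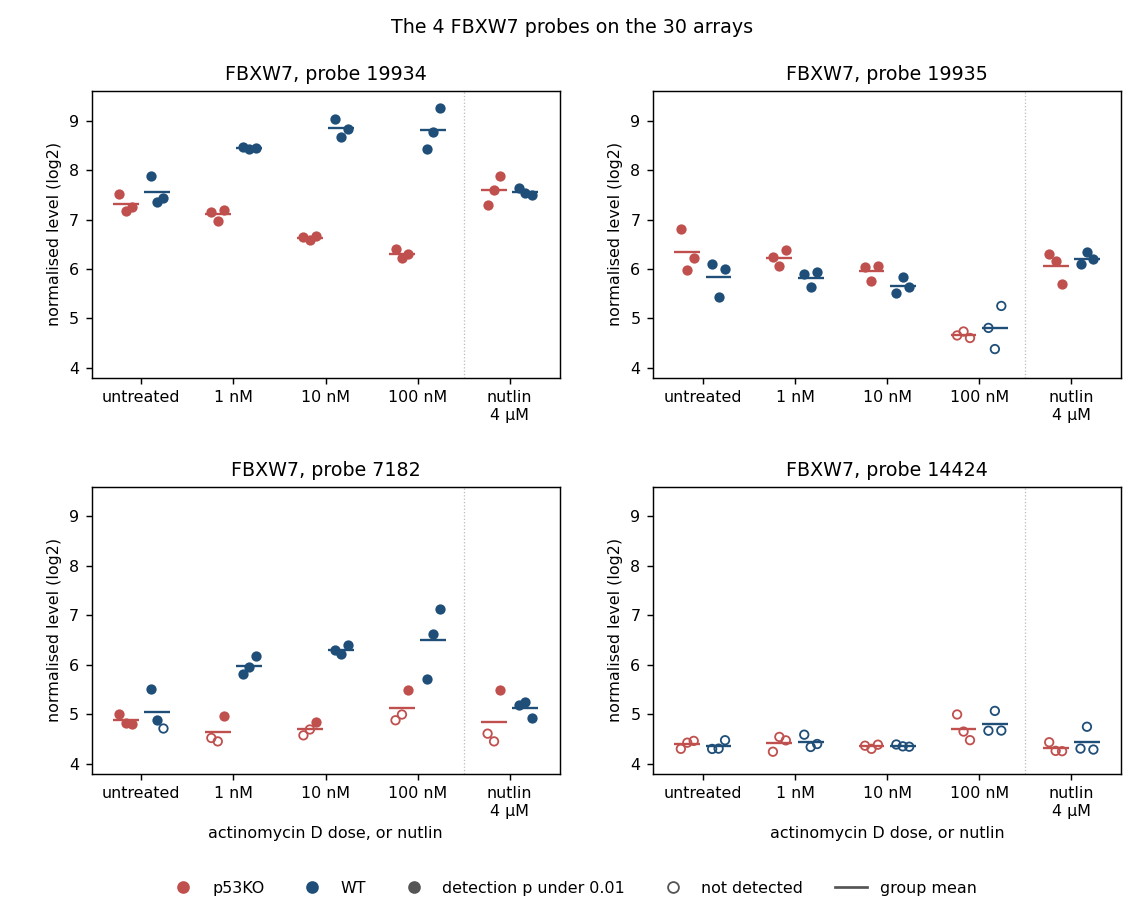
Normalised level (log2) of each of the 4 FBXW7 probes on the 30 arrays, p53KO (red) left of WT (blue), group means as bars (n = 3), open points not detected. Probe 19934 separates the genotypes at every dose, probe 7182 does so at lower levels, probe 19935 does not and is undetected at 100 nM, and probe 14424 stays between 4.24 and 5.07.

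The tested genotype differences, set beside all probes, were these. LHX5 and FBXW7 probes 19934 and 7182 were called lower in p53KO cells at 1 nM, where 10.8% of all 12896 probes were called and 5.69% were called lower. The same probes were called lower at 10 nM, where 13.6% of all probes were called and 7.29% lower. SNAI2 and FBXW7 probe 19935 were called at neither dose. At 10 nM the difference of FBXW7 probe 19934 lay at the 0.465 percentile of all probes, that of probe 7182 at 1.0 and that of LHX5 at 1.06. LHX5 passed the filter only through WT groups, so its calls and its place among all probes are not independent of the filter. With each pair of same-numbered p53KO and WT arrays of a treatment as a block, 2670 probes were called at 10 nM in place of 1749. SNAI2 was then called besides these 3 probes. One WT array at 10 nM lay on another slide than the other 5 arrays of that dose. With slide as a block the differences at 10 nM were -1.50 ± 0.20 for LHX5, -2.24 ± 0.15 for FBXW7 probe 19934 and -1.65 ± 0.25 for probe 7182, all called. On the authors' processed intensities, raised to a floor of 16, LHX5 and FBXW7 probe 7182 were not called at 1 nM (adjusted p 0.544 and 0.353). Processed LHX5 averaged 0.99 in p53KO cells and 16.1 in WT cells at 1 nM, and probe 7182 averaged 5.63 and 21.4.

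**Figure D4:**
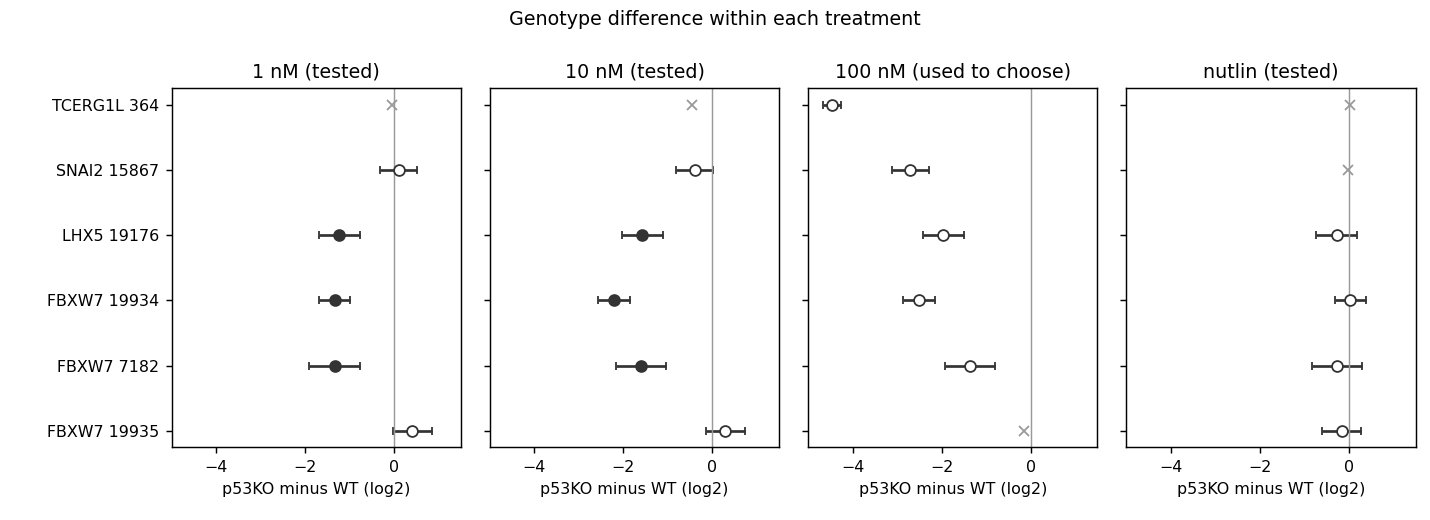
Difference p53KO minus WT (log2) of the 6 tested probes within each treatment, with 95% intervals from limma's model. Filled points had an adjusted p under 0.05, crosses mark probes detected on no array of either group, and at 100 nM no test is given because these values chose the genes. LHX5 and FBXW7 probes 19934 and 7182 lie left of 0 at each dose, at -2.21 for probe 19934 at 10 nM. The LHX5 calls are not independent of the filter. No probe is called under nutlin, where the third arrays, on which PROM1 and CDKN1A go against the labels, are included.

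**Figure D5:**
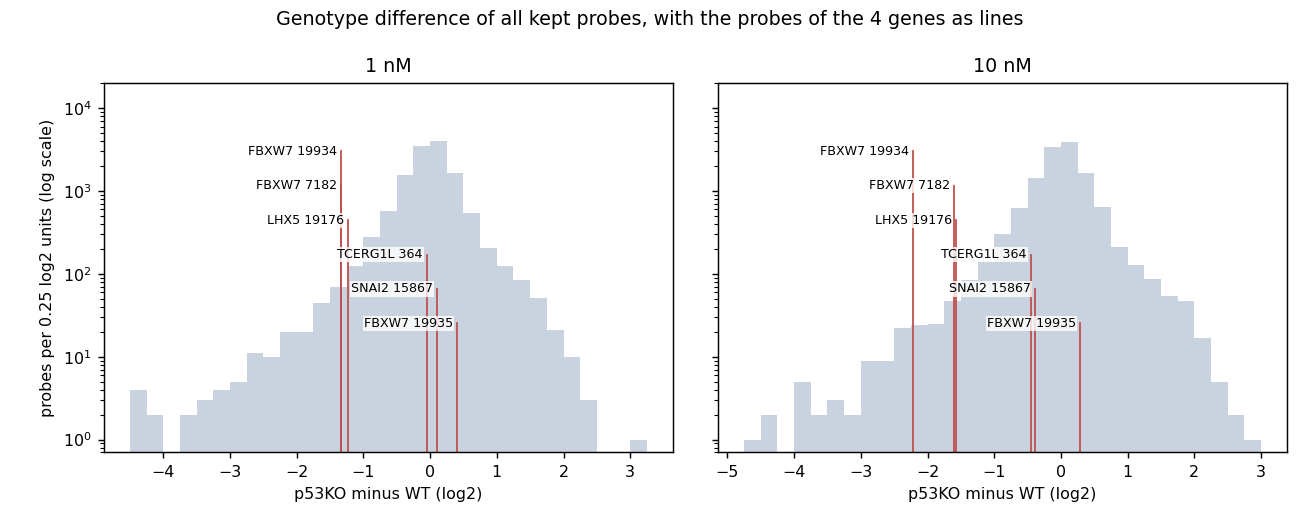
Number of probes (log scale) per bin of 0.25 log2 units of the difference p53KO minus WT at 1 nM and 10 nM, over all 12896 tested probes, with lines at the 6 tested probes of the 4 genes. FBXW7 probe 19934 lies at -1.34 and -2.21, far in the left tail, and probe 19935 lies right of 0, at 0.40 and 0.29.

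Under nutlin-3 none of the 4 genes was called. With all arrays no probe at all was called, with 166 of 12896 at an unadjusted p under 0.05. LHX5 was at 4.43, 4.49 and 5.12 in p53KO cells and 5.02, 5.32 and 4.54 in WT cells, and FBXW7 probe 7182 at 4.61, 4.45 and 5.48 in p53KO cells and 5.19, 5.25 and 4.92 in WT cells. In both, the third array labelled p53KO was the highest of its group and the third array labelled WT the lowest, the same arrays on which PROM1 and CDKN1A go against the labels.

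Without the third nutlin arrays 1023 probes were called. The difference was then -0.71 ± 0.23 for LHX5 (limma, adjusted p 0.0621) and -0.69 ± 0.30 for FBXW7 probe 7182 (adjusted p 0.172). With slide as a block LHX5 was called under nutlin (adjusted p 0.0466), in a fit that called 1686 of 12896 probes. The third nutlin arrays each lay alone on a slide, so this block takes them out of the difference, which was again -0.71. It is not a further result beside the one without these arrays. FBXW7 probe 19934 had a difference of 0.03 ± 0.17 with all arrays and -0.14 ± 0.20 without the third ones. TCERG1L and SNAI2 were detected on 0 of the 6 nutlin arrays. Nutlin levels of FBXW7 probe 19934 in WT cells were 7.64, 7.55 and 7.49, against 7.88, 7.36 and 7.44 untreated, and the groups overlapped. The overlap came from the first untreated array alone. Without it, every WT nutlin array lay above the remaining untreated arrays, at 7.36 and 7.44. The same held in p53KO cells without the untreated array at 7.52. Nutlin levels there were 7.30, 7.61 and 7.88, against 7.18 and 7.24 untreated. PROM1 and CDKN1A go against the labels on the nutlin arrays at 7.49 (WT) and 7.88 (p53KO). With these arrays left out too, the remaining nutlin arrays still lay above the remaining untreated arrays in both genotypes.

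Over the 10 group means, TCERG1L and SNAI2 were most alike among the 4 genes (Pearson r 0.97), and LHX5 and FBXW7 probe 7182 had r 0.97 as well. These r are descriptions over groups that share an array set, and TCERG1L and SNAI2 were both set by the WT group at 100 nM. The kept probes most like TCERG1L were those of PKD1L2 (0.98), CEACAM21 (0.97), SNAI2 (0.97), CAMKK1 (0.97) and LCE1C (0.96). Most like SNAI2 were CGB8 (0.98), LCE1C (0.97), TCERG1L (0.97), GOLGA8A (0.97) and CALML3 (0.97). For LHX5 they were CLDN2 (0.97), LCE1B (0.97), FBXW7 probe 7182 (0.97), WDR97 (0.96) and PRDM1 (0.95). For FBXW7 probe 19934 they were PTAFR (0.96), SESN1 (0.94), ZNF30 (0.93), CYP4F2 (0.93) and RYR1 (0.93). SESN1, a stress-response gene that p53 activates, was at 5.74 in p53KO cells and 9.50 in WT cells at 10 nM.

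Genes of the same pathways, with 1 probe each, were set against 11526 features, of which 11.2% were called at 1 nM and 14% at 10 nM. Of 25 known p53 targets, 22 were lower in p53KO cells at 1 nM and 22 at 10 nM and none was higher, with median differences of -1.61 and -1.53. The largest at 1 nM were GDF15, a stress cytokine (-4.36 ± 0.76), TP53I3, a quinone oxidoreductase (-4.29 ± 0.85), and TP53INP1, a p53 cofactor (-4.27 ± 0.74), each with a limma adjusted p of 0.00289 or less.

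FBXW7 acts on proteins, and only the RNA of its substrates was measured. Of 17 genes whose products FBXW7 marks for destruction, 5 were higher in p53KO cells and 1 lower at each of the 2 doses, with median differences of 0.16 and 0.16. CCNE2, a cyclin of S-phase entry, was higher by 1.79 ± 0.43 at 1 nM and 1.97 ± 0.43 at 10 nM (limma, adjusted p 0.00997 and 0.00341). AURKA and PLK1, mitotic kinases, were higher by 1.59 ± 0.37 and 1.58 ± 0.36 at 1 nM and by 1.87 ± 0.37 and 2.00 ± 0.36 at 10 nM. CCNE1 and MYB were the other higher genes, and MYC, a growth-promoting transcription factor, was the lower one, by -0.87 ± 0.21 at 1 nM (adjusted p 0.00894). CCNE1, MYB and MYC were named after their values were seen. None of the 14 tested genes of the SCF core and of the F-box WD40 family other than FBXW7 was called at either dose. RBX1, the RING subunit, differed by 0.14 ± 0.14 at 10 nM, NEDD8, the cullin modifier, by -0.11 ± 0.11, and SKP1, the adaptor that holds the F-box, by -0.01 ± 0.15.

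A list of epithelial-to-mesenchymal transition factors and junction genes had 13 tested genes other than SNAI2. It also holds BBC3, an apoptosis gene called at neither dose. Of the 13, 1 was higher and 2 were lower in p53KO cells at 1 nM, and 1 and 2 at 10 nM. TWIST1, a transcription factor of the transition, was at 4.25 and 4.26 in p53KO cells, where no array detected it, and 5.60 and 5.86 in WT cells at 1 and 10 nM (limma, adjusted p 0.0107 and 0.00222). VIM, the mesenchymal filament vimentin, went the other way, higher by 1.09 ± 0.27 and 1.34 ± 0.27. SNAI3, of the same family as SNAI2, was lower by -0.63 ± 0.18 at 1 nM, and CLDN3, a tight-junction claudin, by -1.08 ± 0.33 at 10 nM. Of 8 tested LIM homeobox genes and cofactors other than LHX5, ISL1 alone was called, higher in p53KO cells by 0.74 ± 0.21 at 1 nM and 0.68 ± 0.21 at 10 nM.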

How the data were processed

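As deposited by the authors, each probe has on every array an average bead intensity and a detection p-value in the raw table, per the file headers. BeadStudio is named, without a version, in the submitters' processing notes. A second deposited table holds processed intensities that go below 0 and whose median is 10.195 on each array. How these were made, the sources used here do not say. Columns of 26 other arrays were not used. Some items are not reported here. The platform annotation gave 21101 of 22177 probes a symbol.

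Background correction (neqc, offset 16, its negative controls estimated through the deposited detection p-values), quantile normalisation and log2 were run on the raw intensities in limma 3.58.1 under R 4.3.3. A linear model with 10 group means and 20 residual degrees of freedom was fitted to the 12896 probes with a detection p under 0.01 throughout at least 1 group (lmFit, eBayes). Adjusted p-values are limma's over all these probes (Benjamini-Hochberg), and a probe was called under 0.05. Tested were the genotype difference at 1 nM, 10 nM and under nutlin, and 10 against 1 nM in each genotype and between them. Contrasts with 100 nM or untreated arrays are descriptions. The text names every probe of the 4 genes, their 5 most alike probes and up to 3 called genes a list and contrast (4 by level where none was called). The 4 genes and the gene lists were chosen with earlier results of these data known. The procedure was tested on simulated data. Alternatives were the background correction, the deposited processed intensities, the filter, slide and replicate blocks, and left-out arrays. A replicate block joins the p53KO and WT arrays of the same treatment and number.

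Same-numbered p53KO and WT arrays deviated together at 1 nM (correlations 0.391 to 0.512) and 10 nM (0.353 to 0.42), so the numbers may pair the arrays there. What else could give such correlations was not tested. The main fit has no term for such pairs, and the replicate block does. Untreated and at 100 nM the correlations were 0.589 to 0.773 and 0.228 to 0.462. Under nutlin they were -0.406 to 0.033. PROM1 and CDKN1A on the third nutlin arrays go against the labels, so these values cannot show whether the numbers pair the arrays.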

Additional observations from a re-analysis of the deposited data

Results flagged for a closer look

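For FBXW7 probe 19934, the normalised levels at 10 nM were below those at 1 nM in p53KO cells and above them in WT cells. Neither difference was called, -0.48 in p53KO cells (limma, adjusted p 0.113) and 0.39 in WT cells (adjusted p 0.191), and the difference of the 2 changes was -0.8707 on the log2 scale (SE 0.24, limma, unadjusted p 0.00137, adjusted p 1). The raw p53KO means were 160 at both doses, so the lower level there appears after normalisation. Each of the 3 normalised arrays at 10 nM lay below the 3 at 1 nM in p53KO cells, and above them in WT cells. Leaving out each array in turn gave -0.96 to -0.78. With slide as a fixed block the difference was -0.90 ± 0.21 (SE, adjusted p 0.622). The arrays of the 2 doses lay on different slides, so slide and dose cannot be told apart within a genotype.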

How the results depend on the processing

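Differences of LHX5 and FBXW7 probes 19934 and 7182 at 1 and 10 nM kept direction and call in 82 of 84 alternative values, the other 2 being LHX5 (-0.15) and probe 7182 (-0.41) at 1 nM on the authors' processed intensities. The LHX5 values among them are not independent of the filter, which LHX5 passed only through WT groups. The genotype difference in the change from untreated to 100 nM, a description, was smaller with offset 50 and kept its direction. It went from -4.19 to -2.94 for TCERG1L, -2.89 to -1.86 for SNAI2 and -1.63 to -1.05 for LHX5. For probe 19934 it went from -2.26 to -1.89, and to -2.91 on the processed intensities. For probe 7182 it went from -1.21 to -0.78 with offset 50.

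Probes of the 4 genes past the threshold at 1 nM, 3 of 6, became 1 on the processed intensities and 1 with probes detected on all 30 arrays. At 10 nM 4, with the undetected TCERG1L counted, became 1 there, since only probe 19934 passes that filter. Probes called at 1 nM (1396) were 2804 without the 4 doubted arrays (the first untreated and the third nutlin arrays of both genotypes, for their CDKN1A levels), 2132 without the third nutlin arrays, 2827 with slide as a fixed block, 2311 as a random block, 3949 with the replicate block without the 4 arrays and 2237 with only the groups compared. At 10 nM (1749) they were 3161, 2703 with slide fixed, 2670 with the replicate block, 4288 with it without the 4 arrays, 4447 with only the groups compared, and 825 without the second WT arrays. Under nutlin (0) they were 2 on the processed intensities, 1670 without the 4 arrays, 1023 without the third ones, 1686 with slide fixed and 2864 with the replicate block without the 4 arrays, with 1 member called in the slide fit (LHX5) and 2 in the last (LHX5, adjusted p 0.0437, and probe 7182, 0.0104). The block changed no other call of the members than those named here and in the report.

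For 10 against 1 nM in p53KO cells (588) the counts were 1623 without the 4 arrays, 917 without the first untreated and 917 without the third nutlin arrays, 0 with slide random and 2646 with only the groups compared, and probe 19934 was called (1 member) in the first and last. In WT cells (738) they were 1791, 1120 without the third nutlin arrays, 340 without the second WT arrays, 1 with slide random and 1486 with only the groups compared. TCERG1L, detected on no array there and not read as a call, was past the threshold (1) and no longer so (0) with offset 50, no background correction, the processed intensities, the filter on all arrays, slide random and without the second WT arrays, and SNAI2 joined it (2) without the 4 arrays or the first untreated arrays. The interaction had 13 called probes on the processed intensities, 4 with no filter and 0 under the other settings named here.

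Reversed values lay near 0. Under nutlin without the third arrays, also with the 4 left out, slide fixed or blocked, TCERG1L was at -0.00975, probe 19934 at -0.143 and probe 19935 at 0.0171, and with slide random probe 19934 was at -0.0345. The interaction of probe 19935 was 0.0364 with slide fixed.

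Leaving out each array gave 321 to 1805 called probes at 1 nM (fewest without the second WT array), 886 to 2146 at 10 nM (without the second WT array), 0 to 125 under nutlin (125 without the third WT array, 6 without the third p53KO array), 134 to 877 and 215 to 1033 for 10 against 1 nM in p53KO and WT cells (without the first p53KO 1 nM and the first WT 10 nM array), and 0 to 1 for the interaction. Members past the threshold, TCERG1L counted, were always 3 at 1 nM and 4 at 10 nM, and 0 to 2 for 10 against 1 nM in WT cells. The ranges that crossed 0 were SNAI2 at 1 nM (-0.106 to 0.208), TCERG1L (-0.019 to 0.0613), SNAI2 (-0.0648 to 0.0242), probe 19934 (-0.109 to 0.183) and probe 19935 (-0.286 to 0.0241) under nutlin, and TCERG1L (-0.0333 to 0.0137), SNAI2 (-0.00954 to 0.304), LHX5 (-0.034 to 0.149) and probe 7182 (-0.0366 to 0.218) for 10 against 1 nM in p53KO cells. The causes were not tested. TCERG1L, SNAI2 and LHX5 are near background in most groups, which limits what low values can show.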
